A study of Mus musculus with 12 samples.

Results

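SGC-0946 and EPZ-5676 (pinometostat) are 2 inhibitors of the histone methyltransferase DOT1L, and the H3K79me2 peaks that remained in CD8 T cells after each of them were compared directly. Peaks in the SGC-0946 list (SGC peaks) were matched to peaks in the EPZ-5676 list (EPZ peaks) where they shared 1 base or more. The comparison holds 4498 peaks, 4443 EPZ and 55 SGC, of 17076 in the 3 lists of the series, the third being the vehicle list (DMSO peaks). Of the EPZ peaks, 41 held an SGC peak and 4402 did not.

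The cells were CD8 T cells isolated from male mice of the strain CreERT2;DOT1L-flox;OT-I, whose genotype at these 3 loci is given in order as wt;wt;het. All 3 groups therefore lacked the Cre and floxed alleles and carried 1 copy of the OT-I transgene, which encodes a T cell receptor specific for an ovalbumin peptide. Cells were stimulated through CD3 and CD28 at day 0, expanded for 8 days and given 10 mM EPZ-5676, 10 mM SGC-0946 or 0.1% DMSO every 2 days. The labelled unit of mM is doubtful, and whether the 2 compounds were equally active at that dose was not tested. Yeast chromatin carrying HA-tagged H3, which lacks H3K79 methylation, was added as an external reference. Each treatment had 2 immunoprecipitated and 2 input libraries, 12 in all, but 1 pooled peak list. No spread between replicates can be given, no p-value is printed, and the read depth is unknown, so a place without an SGC peak is one where none was called. The ages of the mice are not stated in the labels.

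DOT1L is the enzyme that methylates lysine 79 of histone H3, a residue on the surface of the nucleosome core and not in the histone tail. H3K79me2 lies mainly over the first part of transcribed genes, downstream of the start, and reaches far into the gene body at some highly transcribed genes. In T cells, DOT1L has been studied for its part in differentiation and in keeping CD8 T cell identity.

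The promoters of 4 genes are shown first because they mark the edge from which the SGC peaks were set back: the gene start of each lay under an EPZ peak and a DMSO peak but not under its SGC peak. They were chosen after the values were seen, among the 15 genes with most SGC bases, from those whose start in the promoter table is the gene edge, to show high and low CpG content. Each run is the 250 bases before the start, 5′ to 3′ on the gene's strand, from RefSeq on GRCm38.p6, the same build as mm10. Capitals mark matches to 5 short motifs, searched on both strands: TATAAA (the TATA box), CCGGAAG (an ETS core), TGTGGTT (a RUNX core), GGGCGG (a GC box) and CCAAT.
Srsf3, chr17:29032410-29032659, plus strand: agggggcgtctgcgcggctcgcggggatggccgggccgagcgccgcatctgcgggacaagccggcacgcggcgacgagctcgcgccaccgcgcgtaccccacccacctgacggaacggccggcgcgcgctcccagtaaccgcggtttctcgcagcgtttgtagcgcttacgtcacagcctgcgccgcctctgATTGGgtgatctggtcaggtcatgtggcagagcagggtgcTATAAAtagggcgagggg
Arl4c, chr1:88702192-88702441, minus strand: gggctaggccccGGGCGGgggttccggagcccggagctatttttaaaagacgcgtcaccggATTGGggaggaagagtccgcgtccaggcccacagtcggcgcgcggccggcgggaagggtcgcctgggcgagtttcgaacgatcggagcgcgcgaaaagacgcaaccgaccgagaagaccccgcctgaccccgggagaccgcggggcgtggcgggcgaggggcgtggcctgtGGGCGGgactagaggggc
Ms4a4b, chr19:11443308-11443557, plus strand: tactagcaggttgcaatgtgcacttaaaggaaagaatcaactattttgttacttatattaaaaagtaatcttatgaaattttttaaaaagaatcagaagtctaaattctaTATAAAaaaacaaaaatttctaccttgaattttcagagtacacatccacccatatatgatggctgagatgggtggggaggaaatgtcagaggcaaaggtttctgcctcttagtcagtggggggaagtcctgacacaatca
Ms4a6b, chr19:11518309-11518558, plus strand: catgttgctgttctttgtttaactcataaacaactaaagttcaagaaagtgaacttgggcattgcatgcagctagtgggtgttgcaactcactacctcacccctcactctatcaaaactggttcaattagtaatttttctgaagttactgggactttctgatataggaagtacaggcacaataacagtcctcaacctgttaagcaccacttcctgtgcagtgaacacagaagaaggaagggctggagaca

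These 4 promoters differ widely in composition. The promoter of Srsf3, a splicing factor, holds 35 CpG in 250 bases at 69.6% GC, and that of Arl4c, a small ARF-like GTPase, holds 35 CpG at 71.6% GC. The promoters of the membrane protein genes Ms4a4b and Ms4a6b hold 0 CpG, at 34.4% and 42.0% GC. The nearest SGC base lay 701 bases from the start of Srsf3, 893 bases from that of Arl4c, 1855 bases from that of Ms4a4b and 395 bases from that of Ms4a6b. The 4 were chosen for a start outside an SGC peak and for high and low CpG content, so this range is set by the choice. Of the 27 genes with an SGC peak in the promoter table, 0 had a start under an SGC peak.

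Each gene was scored at 1 start, the outermost of its starts in the promoter table. Over the 27 genes with an SGC peak that the promoter table holds, the median was 9 CpG, beside 18 in 2804 other genes with an EPZ peak and 10 in all 17492 genes of the table. Other starts of a gene can differ in either direction. Hnrnpf had 6 CpG at the start scored and 30 at the start 1177 bases from its SGC peak, and Mbnl1 had 1 and 33. Ikzf1 went the other way, with 44 and 1, as did Pim1, with 36 and 4. Values over other starts are not given here, so these contrasts hold for this choice of start only. With only table starts within 1 kb of the gene edge, the medians were 14 CpG in 25 genes and 18 in 2497 others, a smaller contrast. TATAAA was present in 6 of 27 (22.2%, exact 95% interval 8.62 to 42.3) and in 5.60% of the other genes with an EPZ peak, beside 12.4% of all genes. GGGCGG was present in 48.1% of the 27, in 62.2% of the others and in 42.7% of all, and CCGGAAG in 7.41%, 17.7% and 9.15%. CCAAT, at 40.7% against 36.8%, and TGTGGTT, at 3.70% against 3.35%, lay close together in the 2 sets. A match is a description of the letters and not a binding site, matches of GGGCGG to neighbouring or overlapping positions were counted as present once, and none of these shares was tested.

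A second set of sequences belongs to an SGC peak that lies in no annotated gene, at chr11:87755873-87756797. It ends 66 bases before the hairpin of Mir142, a microRNA gene specific to blood cells, at chr11:87756864-87756927 on the plus strand. The Mir142b hairpin on the minus strand lies 43 bases from the same peak. The mature sequences are shown because this was the only SGC peak whose EPZ peak covered a miRNA hairpin; capitals mark the seed, bases 2 to 8, and no seed is shared among them.
mmu-miR-142a-5p: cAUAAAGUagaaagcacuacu
mmu-miR-142a-3p: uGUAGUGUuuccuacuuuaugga
mmu-miR-142b: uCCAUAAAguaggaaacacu

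Of 32 miRNA hairpins that lay under an EPZ peak, these 2 lay under one with an SGC peak, and 0 lay under an SGC peak itself. The EPZ peak was 20.9 kb wide at 6.66-fold. The SGC peak stood at 3.40-fold and a −log10 q of 1.37, near the lowest values of the SGC list, 3.28 and 1.27.

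SGC peaks were nested inside EPZ peaks and were placed at a small fraction of them. An SGC peak was present in 41 of 4443 EPZ peaks, which is 0.923%, and an EPZ peak was present at 54 of 55 SGC peaks, which is 98.2%. Both shares describe 1 list against another. The lists differ in their lowest fold enrichment, 2.16 for EPZ and 3.28 for SGC peaks, and with a common minimum of fold enrichment and −log10 p the count was 41 of 2889 EPZ peaks (1.42%). Of the 55 SGC peaks, 53 lay wholly inside 1 EPZ peak, and 137589 of the 137868 SGC bases (99.8%) were EPZ bases. No match rested on a narrow edge, since the smallest shared stretch was 231 bases. Seen from the EPZ list, SGC peaks covered 0.761% of its bases and 14.7% of the bases of the 41 EPZ peaks that held one. Of these 41, 30 held 1 SGC peak, 10 held 2 and 1 held 4, the last over Mbnl1, which encodes a regulator of alternative splicing.

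The 41 EPZ peaks with an SGC peak were among the broadest and highest of the EPZ list. Their median width was 12.9 kb (interquartile range 7.62 to 29.8), against 2.08 kb (1.05 to 4.41) for the 4402 without. Their median fold enrichment, the authors' ratio over background for a peak, was 17.9 (14.3 to 23.6), against 3.61 (3.13 to 4.94). Median widths of DMSO peaks at the same places were 18.5 and 11.6 kb, and median DMSO fold enrichments were 10.4 and 5.97. The EPZ peak took up 76.1% of the width of the DMSO peak (67.2 to 87.4) where an SGC peak was also present, and 22.9% (8.95 to 45.8) where none was. Places with an SGC peak were thus those at which the EPZ peak also stayed closer to the vehicle peak's width, compared with all other EPZ peaks, most of them lower. The gap was smaller among the 100 EPZ peaks of highest fold enrichment. There the median EPZ and DMSO widths were 15.4 and 22.0 kb with an SGC peak, and 7.75 and 15.2 kb without. Each EPZ peak was set against its DMSO peak singly, also where 1 DMSO peak held several EPZ peaks.

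**Figure D1:**
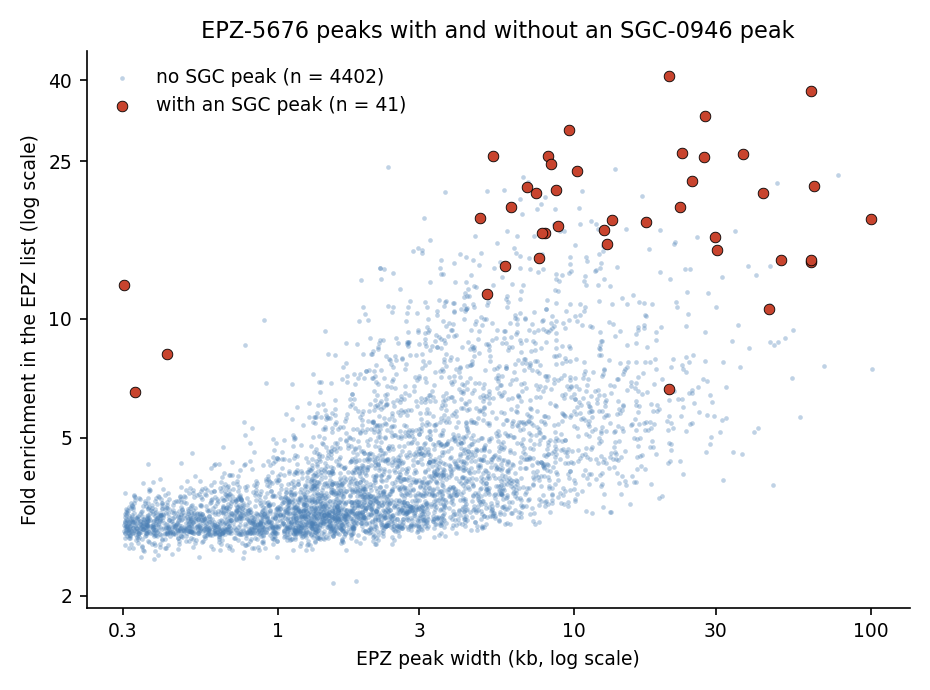
Each point is 1 EPZ peak, with its width in kb on a log axis and its deposited fold enrichment on a log axis, coloured by whether an SGC peak shares 1 base or more with it. The 41 peaks with an SGC peak lie at the upper right, with medians of 12.9 kb and 17.9-fold, apart from 3 peaks under 500 bases.

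Order by fold enrichment separated the 2 kinds of EPZ peak more sharply than order by width. Each of the 10 EPZ peaks of highest fold enrichment held an SGC peak, as did 15 of the first 25, 24 of the first 50, 34 of the first 100 and 37 of the first 200. By width, 5 of the first 10, 8 of the first 25, 16 of the first 100 and 19 of the first 200 did so. With the EPZ peaks divided into 10 classes of equal size by fold enrichment, the top class ran from 7.78 to 41.0, and 39 of its 445 peaks (8.76%, exact 95% interval 6.31 to 11.8) held one. The class below it had 2, and the 8 lowest classes had 0. In the top class by width the count was 24 of 445 (5.39%).

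Peaks in the top class by both measures held an SGC peak in 23 of 148 cases (15.5%, 10.1 to 22.4). Peaks in the top class by fold enrichment only did so in 16 of 297 cases (5.39%), and by width only in 1 of 297 (0.337%). A match at 1 base favours wide peaks, and by width class the count was 37 of 994 at 5 kb or more (3.72%, 2.63 to 5.09), 1 of 3034 between 500 bases and 5 kb, and 3 of 415 under 500 bases. The 1 in the middle class was the peak over Hnrnpa3, an RNA-binding protein gene.

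**Figure D2:**
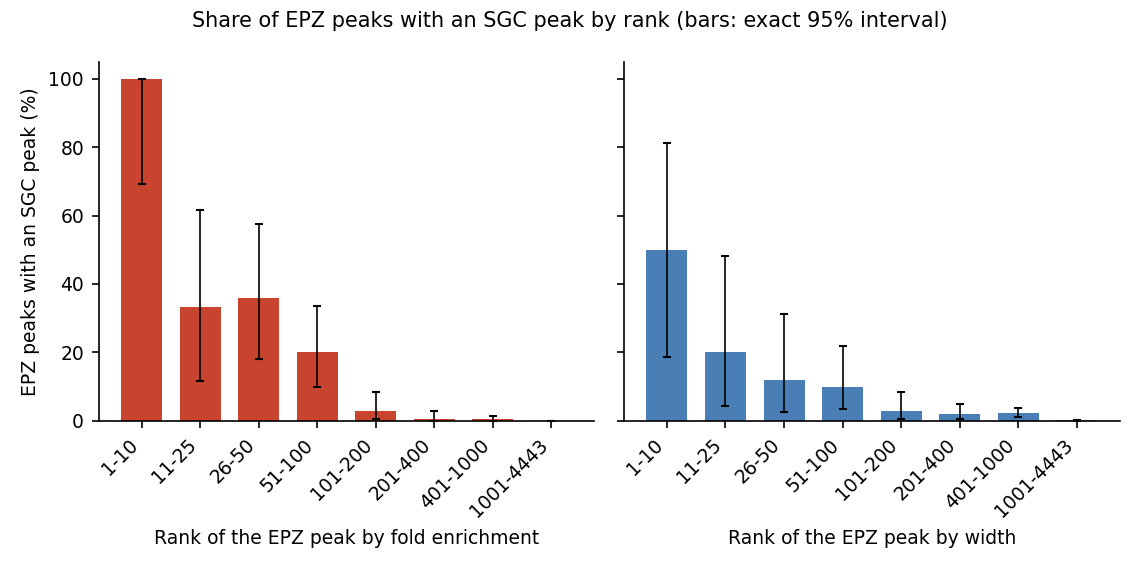
Bars give the percentage of EPZ peaks with an SGC peak in classes of rank, by fold enrichment on the left and by width on the right, rank 1 being the highest, with exact 95% intervals that cover counting only. By fold enrichment ranks 1 to 10 stand at 100% and ranks 11 to 25 at 33.3%, and few EPZ peaks past rank 200 hold an SGC peak.

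High fold enrichment alone did not separate the 2 kinds. Among the 100 EPZ peaks of highest fold enrichment, the 34 with an SGC peak and the 66 without overlapped in EPZ fold enrichment, from 13.9 to 41.0 and from 13.7 to 24.2. Their medians were 20.0 and 16.2. Median EPZ widths were 15.4 and 7.75 kb, and the DMSO peaks there had median widths of 22.0 and 15.2 kb at nearly equal median fold enrichment, 10.9 and 10.4.

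Among the 10 highest EPZ peaks without an SGC peak were the splicing regulator Tra2b at 23.9-fold and the Tcra locus at its joining and constant segments, including Trac, at 23.1. Next came Tmpo, a nuclear lamina protein, at 22.8, Ppp1r15b, a phosphatase subunit of the stress response, at 22.1, and Satb1, a chromatin organiser of T cells, at 22.0. Cnbp, encoding a nucleic acid binding protein, stood at 21.1, Msl2, a subunit of a histone acetyltransferase complex, at 21.0, the cell cycle gene Cks2 at 21.0 and Ptma at 20.8. Some of these were narrow, such as 3.67 kb at Ptma, but those at Tcra and Satb1 were 77.3 and 48.1 kb wide.

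The widest EPZ peaks without an SGC peak were lower, at 5.66 to 9.38-fold apart from Tcra and Satb1. The widest spanned 101 kb over Bcl2, which encodes an inhibitor of apoptosis, at 7.47-fold. It was followed by Tcra, by Ankrd11 at 69.7 kb, by the ETS factor gene Fli1 at 57.8 kb, and by Prkcq, the protein kinase C of T cell receptor signalling, at 54.5 kb. Fam107b at 54.3 kb, the phosphodiesterase gene Pde3b at 51.4 kb, the lipid phosphatase gene Inpp4b at 48.8 kb, Satb1 and the GTPase gene Rras2 at 47.2 kb completed the first 10. Of all 16 EPZ peaks at least as wide as that at Rras2, 6 held an SGC peak (37.5%).

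The SGC peaks were short in absolute terms and covered a minority of most EPZ peaks they lay in. Their median width was 951 bases (interquartile range 444.5 to 2750.5, range 231 to 14929), beside 2096 in the EPZ list. The median share of an EPZ peak covered was 14.5%, from 0.767% at Myh9, a non-muscle myosin heavy chain, to 100%. Over EPZ peaks of at least 500 bases the median was 11.9%.

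Mbnl1 had the highest covered share among EPZ peaks over 500 bases, 69.2% of its first EPZ peak. It was followed by Chaserr, a long non-coding RNA, at 40.2%, Stk17b at 36.5%, the T cell receptor beta locus at 35.9% and Ms4a4b at 33.9%. At the low end, beside Myh9, stood Rhoh, a small GTPase of blood cells, at 0.904% and Bcl11b, a T lineage transcription factor, at 0.914%. Across the 41 EPZ peaks, Spearman's correlation of EPZ fold enrichment with SGC bases was 0.57, and with the share covered 0.31. The correlation of EPZ width with SGC bases was 0.57 and with the share covered -0.30. These are descriptions over peaks of 1 pooled list per treatment and were not tested.

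Within the EPZ peak, the SGC peak lay toward the gene start but did not reach it. Direction could be given for the 35 SGC peaks that lay in exactly 1 protein-coding gene with a strand in the promoter table, 6 of them in Mbnl1. With 0 at the EPZ edge nearer the gene start and 1 at the far edge, the median SGC midpoint was 0.251 (interquartile range 0.133 to 0.376). It ranged from 0.045 in Ikzf1, encoding the transcription factor Ikaros, to 0.901 in Mbnl1. Of the 35 midpoints, 29 lay on the start side of the middle (82.9%, exact 95% interval 66.4 to 93.4), and with the EPZ peak cut into 3 equal stretches 24, 10 and 1 lay in the first, middle and last.

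No SGC peak of the 35 covered the start of its gene, taken here as the outer edge of the gene interval. The first SGC base lay a median of 3.05 kb and the last a median of 4.93 kb downstream of the start, and 26 of 35 midpoints lay within 10 kb. The nearest was in Stk17b, at 0.368 kb. The farthest, at 186 kb, was a peak of 318 bases in Ano2, a chloride channel gene. Some genes have other starts in the promoter table, from which the distances differ. In Hnrnpf the SGC peak began 8.64 kb from the edge but 1177 bases from a table start, and in Tpm3 9.85 kb against 2975 bases. In Grap2 it went the other way, 1.04 kb from the edge and 45011 bases from the table start. The EPZ peaks themselves often reached the start: 15 of the 26 EPZ peaks with a direction covered it (57.7%), beside 205 of 3235 without an SGC peak (6.34%). Among the 100 EPZ peaks of highest fold enrichment the counts were 15 of 24 (62.5%) and 24 of 43 (55.8%), so this contrast was much smaller among high peaks. In the 26, the EPZ peak ran past the SGC peak by a median of 2.63 kb on the start side and 8.72 kb on the far side, and 21 of 26 had more left on the far side.

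**Figure D3:**
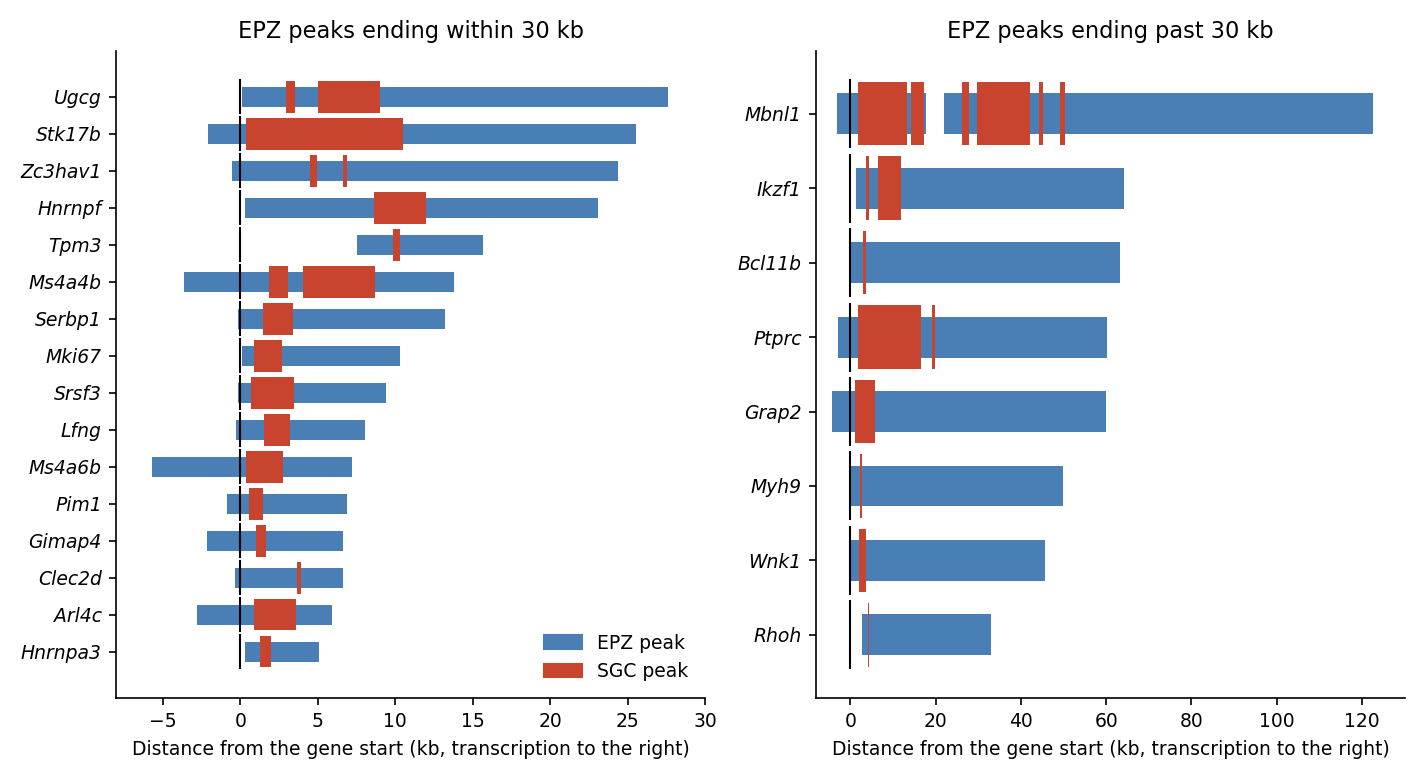
EPZ peaks that hold an SGC peak (blue) and their SGC peaks (red) are drawn to scale for genes with a direction, against distance in kb from the gene start (black line), with shorter reach on the left and longer on the right; Ano2 lies beyond the axis and is left out. The SGC peaks sit inside the EPZ peaks and start downstream of the gene start in every gene drawn.

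Coverage by distance gave the same picture gene by gene. At the outer gene edge, taken as the start, 77.8% of the 27 genes with an SGC peak and a strand had a DMSO peak. An EPZ peak lay there in 59.3% and an SGC peak in 0%. With any start of the promoter table counted, 23 of the 27 had one under a DMSO peak, 20 under an EPZ peak and 0 under an SGC peak. At 2.5 kb downstream, 13 of the 27 (48.1%) had an SGC peak, the highest share at any distance, and this was 22.2% at 5 and 10 kb and 0% at 20 kb; past 20 kb SGC peaks lay at few of these genes, among them Mbnl1. EPZ peaks covered 88.9% of the same genes at 3 kb, 59.3% at 10 kb and 44.4% at 20 kb. In the 2804 other genes with an EPZ peak, EPZ coverage was highest at 1 kb, at 67.7%, and was 27.8% at 5 kb, 12.7% at 10 kb and 5.10% at 20 kb. These shares are of all genes of a set, and genes that end before a distance stay in them. Of the 27, 21 were at least 10 kb long and 17 at least 20 kb, and of the 2804, 2154 and 1568. Peaks past the end of a gene were counted too, so the declines include genes that had ended. EPZ peaks thus reached farther downstream in genes with an SGC peak than in the others, and SGC peaks mostly stopped sooner than the EPZ peaks of the same genes.

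**Figure D4:**
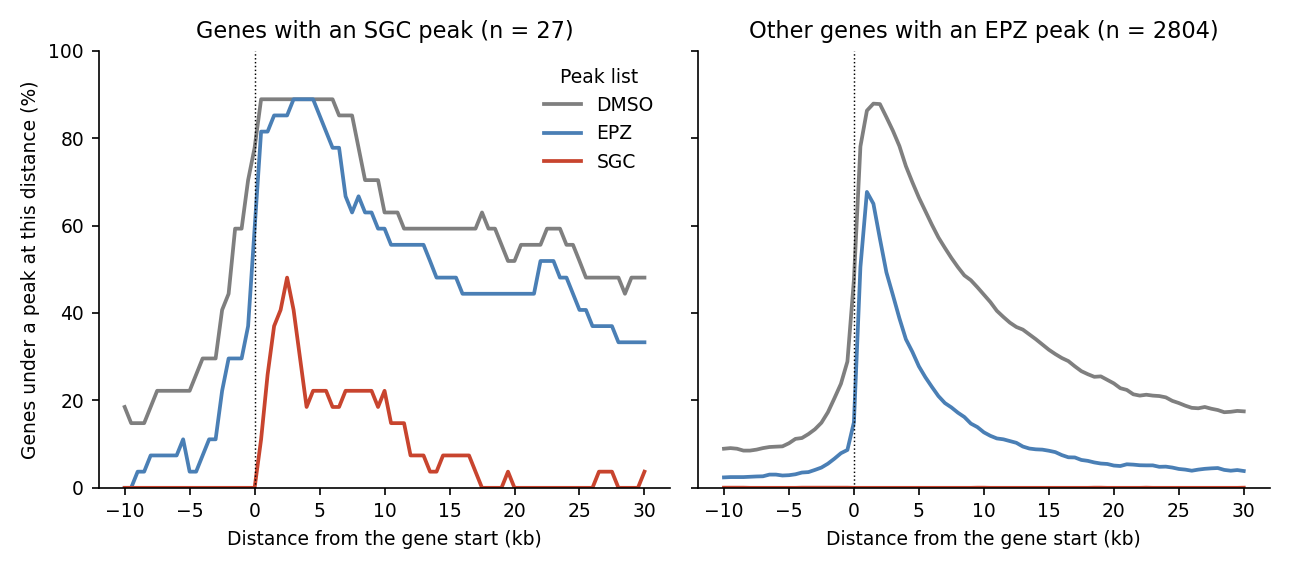
Lines give the percentage of genes under a DMSO, EPZ or SGC peak at each distance from the gene start (kb, downstream positive), for the 27 genes with an SGC peak on the left and 2804 other genes with an EPZ peak on the right. The SGC curve is at 0% at the start and highest, 48.1%, at 2.5 kb. Genes shorter than a distance stay in the percentage.

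By gene, 31 of the 3486 protein-coding genes with an EPZ peak had an SGC peak, which is 0.889%, and an EPZ peak lay in 15.9% of all 21900 protein-coding genes. The median gene length of the 31 was close to that of the rest, 26.7 kb against 24.0 kb, but the upper quartile was higher. The interquartile ranges were 9.26 to 73.2 kb and 10.8 to 50.6 kb. The 31 held a median of 12.4 kb of EPZ peak against 2.45 kb, and 17.7 kb of DMSO peak against 8.42 kb. EPZ bases came to 86.0% of DMSO bases in the 31 and to 34.1% in the others. SGC bases came to a median of 14.6% of EPZ bases. The lists do not say how reads that fit several places were handled, so genes with near-identical copies or neighbours, such as the Ms4a and Gimap clusters and Actb, are uncertain to that extent.

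The genes are taken below by known role, a grouping made after their values were seen, and peak bases are those inside the gene. Their SGC peaks were not called with equal strength. The −log10 q was 1.32 in Pim1, 1.33 in Myh9, 1.34 in Bcl11b, Rhoh and Tpm3 and 1.37 in Mki67, close to the lowest of the list, 1.27. It reached 8.82 in Mbnl1, 5.65 in Stk17b and 5.62 in Ptprc. Of genes of antigen receptor signalling, several had long SGC stretches. Ptprc, which encodes the phosphatase CD45, had 15.7 kb of SGC peak in 60.2 kb of EPZ peak (26.1%), and its DMSO peaks covered 78.0 kb. Stk17b, a kinase that restrains T cell receptor signalling, had 10.1 kb of 25.6 kb (39.5%). The adaptor gene Grap2 had 4.84 kb (8.06% of its EPZ bases). Rhoh had 0.275 kb of 30.4 kb. EPZ breadth in these 4 genes, from 25.6 to 60.2 kb, gave another order than their SGC stretches did.

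Of genes of RNA processing, Mbnl1 had the most. Its 6 SGC peaks summed to 30.4 kb, the most of any gene and 23.2% of its 131 kb of EPZ peak, and its EPZ peak of 41.0-fold was the highest of the list. Hnrnpf, an RNA-binding protein gene, had 3.33 kb (14.6%), Srsf3 2.77 kb (29.4%), Serbp1, an RNA-binding protein of ribosomes, 1.95 kb (14.7%) and Hnrnpa3 0.698 kb. Other genes of this role had high EPZ peaks and no SGC peak, such as the splicing regulator gene Ptbp1 at 16.6-fold. Outside protein-coding genes, the nuclear RNA Malat1 held 1 SGC peak of 892 bases.

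The transcription factor genes Ikzf1 and Bcl11b had 5.99 kb (8.72%) and 0.576 kb of SGC peak, although Bcl11b had more EPZ peak, 84.2 kb against 68.7 kb. Of genes for surface proteins and for enzymes that add sugars to lipids or proteins, Ms4a4b had 5.92 kb (42.9%), Ms4a6b 2.38 kb (33.1%), Ugcg, the glucosylceramide synthase, 4.64 kb (16.9%) and Lfng, a glycosyltransferase that modifies Notch, 1.71 kb (21.2%). Selplg, encoding the selectin ligand PSGL-1, had 1.48 kb. B2m, the light chain of MHC class I, shared a peak of 1.69 kb with Patl2, which overlaps it, and the 2 genes cannot be told apart here. Clec2d had the least, 0.252 kb.

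Of the remaining genes, Arl4c had 2.73 kb of SGC peak in the 3.97 kb of EPZ peak inside the gene (68.8%), and 31.4% of the whole EPZ peak of 8.71 kb was covered. Mki67, which encodes the proliferation marker Ki-67, had 1.86 kb of 10.2 kb (18.2%), the kinase gene Wnk1 1.45 kb and the kinase gene Pim1 0.863 kb. Zc3hav1, an antiviral zinc finger protein gene, had 0.684 kb and the GTPase gene Gimap4 0.618 kb. The cytoskeletal genes Tpm3, Myh9 and Actb and the GTPase gene Arf6, which acts on membrane traffic and actin, had between 0.324 and 0.436 kb each.

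The antigen receptor loci, counted apart from protein-coding genes, held 5 SGC peaks. At the T cell receptor beta locus an EPZ peak of 23.1 kb and 26.3-fold held SGC peaks of 5.23 kb over Trbc1 and its joining segments and of 3.04 kb over the second set of joining segments. At the Tcra and Tcrd locus an EPZ peak of 7.62 kb held SGC peaks of 0.247 and 1.49 kb, whereas the 77.3 kb EPZ peak over Trac named above held none. At Igh, the immunoglobulin heavy chain locus, an EPZ peak of 7.99 kb at 16.5-fold held 1 of 0.951 kb, and the DMSO peak there was 11.6 kb.

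The other 9 SGC peaks outside protein-coding genes were mostly in long EPZ peaks. The widest SGC peak of all, 14.9 kb, lay over Chaserr, in an EPZ peak of 37.2 kb and 26.1-fold. Gm41331 held 2, of 0.937 and 0.320 kb, in an EPZ peak of 29.8 kb. A peak of 582 bases at chr17:34000700-34001281 lay in no annotated gene, within the EPZ peak that covers H2-K1, an MHC class I gene. The peaks at Malat1 and beside Mir142 are described above, and the last 3, at Gm34259, Gm24105 and on chromosome 18, were short.

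Short SGC peaks of that last kind differed from the nested pattern. The EPZ peaks with an SGC peak that were lowest in fold enrichment were those over Ano2, at 6.55, beside Mir142, at 6.66, and over Gm34259, at 8.14. In Ano2 the SGC, EPZ and DMSO peaks were 318, 331 and 324 bases wide. At chr18:65427484-65427794 the SGC, EPZ and DMSO peaks were 311, 303 and 312 bases wide, with deposited fold enrichments of 13.0, 12.1 and 17.9 in their own lists. The only SGC peak without an EPZ peak, at Gm24105, chr5:149247971-149248241, was 271 bases wide at 7.84-fold, and a DMSO peak of 545 bases lay there. At Gm34259 the widths were 232, 423 and 304 bases. The widths in the 3 lists thus lay close together at Ano2 and on chromosome 18, and less so at the other places.

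Of 22 gene lists with 380 members, 244 members had an EPZ peak and 15 of those had an SGC peak. The 15 fell in 11 lists, and 16 of the 31 genes with an SGC peak were in no list. In the T cell receptor and identity list, 3 of 17 members with an EPZ peak had an SGC peak, among them Ptprc and Bcl11b. The Ms4a list had 2 of 4 (Ms4a4b and Ms4a6b), the splicing list 2 of 21 (Srsf3 and Mbnl1) and the actin list 2 of 20 (Actb and Myh9).

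The other lists with 1 member each were lymphocyte transcription factors, 1 of 14 (Ikzf1), cytokine receptors and JAK-STAT, 1 of 19 (Pim1), homing and adhesion, 1 of 14 (Selplg), and antigen presentation, 1 of 14 (B2m). Cell cycle had 1 of 25 (Mki67), immune GTPases 1 of 8 (Gimap4), and DOT1L partners and elongation 1 of 12, which was Bcl11b, a lineage factor and not an elongation factor. Dot1l itself had an EPZ peak of 4.45-fold and no SGC peak. Over all lists the share was 15 of 244 (6.15%), and in lists with any it ran from 4.0% to 50.0%, above the 0.889% of all genes with an EPZ peak. The lists were drawn up with results of these data known and each holds 1 to 3 such genes, so nothing particular to a list is read from these shares.

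In the other lists no member had an SGC peak, which at 0.889% of all genes with an EPZ peak is not a result about lists of this size. Of 10 cytotoxic effector genes with an EPZ peak 0 had an SGC peak, the highest being the transcription regulator gene Id2 at an EPZ fold enrichment of 14.3. For naive and memory genes the count was 0 of 16 (Satb1, 22.0), for glycolysis and Myc 0 of 15 (Myc, 16.2), for ribosomal proteins 0 of 30 (Rpl32, 11.9) and for mitochondrial respiration 0 of 15 (Atp5b, 10.7). Inhibitory receptors had 0 of 2 (Ctla4, 3.60), NK cell receptors 0 of 3 (Klrd1, 5.69) and CD4 T cell genes 0 of 3 (Il2ra, 9.95). The myeloid and non-hematopoietic genes and 10 protein-coding B cell genes had no EPZ peak. The 3 immunoglobulin constant regions of the B cell list (Ighm, Ighd and Igkc) were not counted, and the Igh locus held the EPZ and SGC peaks given above.

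**Figure D5:**
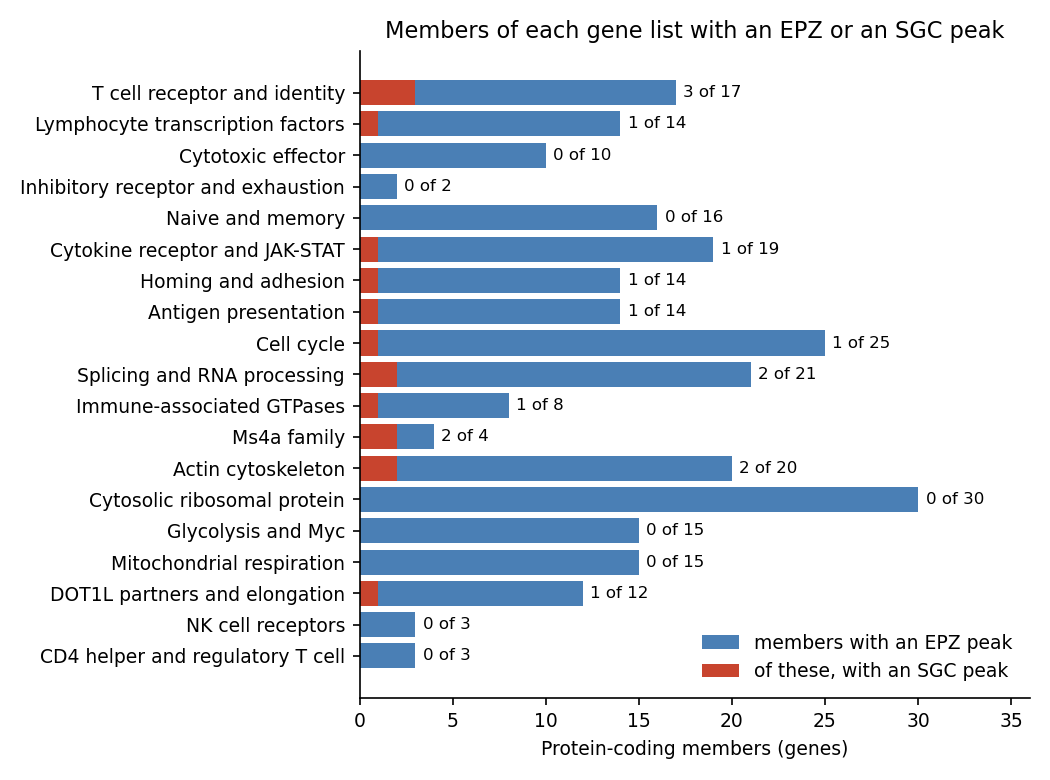
For each gene list with an EPZ-marked member, the blue bar gives the number of protein-coding members with an EPZ peak and the red part those that also had an SGC peak, with both counts beside it. The red parts hold 1 to 3 genes each.

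Defining markers were checked against the label. All 9 CD8 T cell markers had a DMSO and an EPZ peak and 0 had an SGC peak, so the SGC list by itself does not show the labelled cell type through them. Of the markers for the other cell types checked (CD4 T, NK, B, myeloid and non-hematopoietic), 0 had an EPZ peak and 0 had an SGC peak, and 1, the B cell gene Cd79a, had a DMSO peak. These markers are a part of the gene lists, and other list members did have EPZ peaks. Such members were 3 NK cell receptor genes (Klrd1, Klrk1 and Cd226) and 3 genes of the CD4 T cell list (Il2ra, Ctla4 and Gata3).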

How the data were processed

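H3K79me2 ChIP-seq libraries were made from CD8 T cells under 3 treatments. Per the submitters' processing notes, the tools were MACS2 2.2.7.1, Picard and BWA 0.7.17-r1188, with builds mm10 (GRCm38) and sacCer3. Pooling of replicates, use of inputs and yeast reads, and thresholds: not given in the sources used here. The deposited columns are the authors' fold enrichment (a ratio over background), −log10 p, −log10 q and a score, of which the score was not used. Fold enrichment was used only within its own list, apart from the alternative that set 1 common minimum for both lists, and depth is unknown.

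Peaks were matched by 1 base or more with pandas 2.3.3 on Python 3.11.15, and shares have exact Clopper-Pearson 95% intervals (SciPy 1.17.1) that cover counting only. Genes were intervals of RefSeq on GRCm38.p6, with strand from its promoter table, and a gene was marked by 1 base of a peak. For distances and coverage, the gene start was the outer edge of the interval on that strand. It was also the table start in 10583 of 17492 genes. The promoter sequences used the table starts, and the promoter features used the outermost table start of each gene. The matching was tested on 2000 simulated peaks, 80 of which held an inner peak, and found 80. Named were the 15 genes with most SGC bases, list members with an SGC peak, the 10 highest and 10 widest EPZ peaks without one, the 3 lowest with one, the highest EPZ-marked member of each list without one, and SGC peaks outside protein-coding genes; the other genes with an SGC peak were added after their values were seen. A few genes that the rule names are not reported here. The members, gene lists and rules were chosen with earlier results of these data known. Alternatives changed the overlap rule, the peak thresholds and widths, and the gene rule.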

Additional observations from a re-analysis of the deposited data

How the results depend on the processing

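Of 31 alternatives, 24 left a count within 1.5 times its value, or a median within its 95% order-statistic interval. A reversed direction could be found only for the medians of width and fold enrichment, which compare EPZ peaks with and without an SGC peak. None of these reversed, and for the other results a reversal was not defined. Among those 24, the 41 EPZ peaks with an SGC peak became 31 when peaks under 500 bases were left out, and their share rose to 1.42% with a common minimum. The count of EPZ peaks with an SGC peak, 41, became 26 when at least 10% of the EPZ peak had to be covered and 4 at 50%. With both lists limited to a −log10 q of at least 5, 8 of 1647 EPZ peaks held an SGC peak, 8 of 9 SGC peaks lay on an EPZ peak, 5 of 1682 genes had one, the median fold enrichment of EPZ peaks with an SGC peak rose from 17.9 to 28.1, and the median share covered from 14.5% to 32.7%. Joining EPZ peaks within 1 kb could change nothing, since none lay that close. The common minimum equalled the lowest values of the SGC list, and every EPZ peak with an SGC peak lay above it. It could therefore change only the set of EPZ peaks without an SGC peak. Both settings are counted among the 24, and their matched counts and medians say nothing about stability. Position in the EPZ peak was also computed without Mbnl1, an alternative added after seeing the data. No paired analysis was possible because each treatment has 1 pooled list, and for the same reason no replicate could be left out. Depth is unknown and limits which weak peaks were called.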

Other observations

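Of 415 EPZ peaks under 500 bases, 412 lay on a DMSO peak, but at 4 the DMSO peak was also under 500 bases. Of those 4, 3 had an EPZ fold enrichment of at least 5, and each of the 3 held an SGC peak: Ano2, Gm34259 and the place on chromosome 18 given above. They were picked out after their values were seen.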
